A study of Homo sapiens with 6 samples.

Results

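The mitochondrial ribosomal protein genes were taken as the protein-coding genes whose symbol starts with MRPL or MRPS followed by a digit. The annotation holds 78 such genes among 34905 genes with a transcript in the deposited tables, and 77 of them passed the filter on low counts that left 14497 genes for testing. Their RNA was measured in THP1, a human acute monocytic leukaemia line that carries an MLL fusion. By their labels, shCtrl cells carry a control hairpin and are called wild-type, and shALKBH5 cells carry a hairpin against ALKBH5. The label ALKBH5 rescue stands for cells in which the gene was to be restored. ALKBH5 is a demethylase that removes N6-methyladenosine from mRNA. Each group has 2 libraries of oligo-dT selected RNA, numbered 1 and 2 in the titles. No label says that they came from separate cultures or how the rescue construct was built, so the p-values here reflect only how far these libraries spread, and that spread may be technical.

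The mitochondrial ribosome translates the few mRNAs of the mitochondrial genome, which encode core subunits of the respiratory chain and the ATP synthase. All of its proteins are encoded in the nucleus, made in the cytosol and imported, while its rRNAs come from mitochondrial DNA. Names in MRPL belong mostly to the large subunit, which joins amino acids and releases the chain into the inner membrane, and names in MRPS mostly to the small subunit, which binds the mRNA. Some of the proteins have bacterial relatives, and others were added during the evolution of mitochondria. Myeloid leukaemia cells are known to depend on mitochondrial translation.

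The targeted gene did not follow the labels. ALKBH5 stood at a CPM (reads of a gene relative to the scaled library size) of 14.6 in the library labelled shCtrl 1, 12.4 in shALKBH5 1 and 13.6 in ALKBH5 rescue 1. It stood at 1097 in shCtrl 2, 1003 in shALKBH5 2 and 968 in ALKBH5 rescue 2. The level was therefore high in each library numbered 2 and low in each numbered 1, a log2 difference of 6.24. With the number held as a block it changed by -0.17 (standard error, SE, 0.11) on the log2 scale between the libraries labelled shCtrl and shALKBH5. ALKBH5 level and replicate number cannot be told apart in these libraries, and no direction below is a direction of the labelled knock-down. The tables hold 14534386 to 24857373 estimated counts per library. The 10 monocytic markers, among them SPI1, CD14, CD33 and LYZ, were all measured, with summed levels of 2776 to 3018 CPM in the libraries numbered 1 and 2990 to 3413 in those numbered 2. Within this list 4 markers were higher in number 2 (LYZ 0.52, CD33 0.35, ITGAX 0.29 and CD68 0.29 on the log2 scale) and 3 lower (CD14 -0.72, MPO -0.70 and ITGAM -0.65), by edgeR at an adjusted p under 0.05. T, NK and B cell markers summed to 27.3 to 33.1 CPM in all libraries, with CD3D and CD2 at 0, and of the 4 tested PAX5 was higher in number 2 (3.83, 2.86 and 2.61 CPM in number 1 against 6.81, 6.3 and 7.5; log2 1.17, edgeR adjusted p = 0.000962). Erythroid and megakaryocyte markers summed to 6.94 to 7.88 CPM in number 1 and 11.1 to 13.4 in number 2, nearly all from EPOR, with HBB, HBA1, HBG1 and PF4 at 0. Epithelial and fibroblast markers summed to 2.64 to 4.28 CPM. The part of these shifts in the results below was not tested.

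Mitochondrial ribosomal protein RNA was lower in the libraries numbered 2 in each of the 3 labelled groups. The 78 genes together took 0.458% of the counts in shCtrl 1, 0.444% in shALKBH5 1 and 0.488% in ALKBH5 rescue 1. They took 0.365% in shCtrl 2, 0.356% in shALKBH5 2 and 0.354% in ALKBH5 rescue 2. The shares of the 2 numbers do not overlap. As summed levels the 77 tested genes held 4757 ± 310 CPM (SD, n = 3 libraries) in number 1 and 3501 ± 138 CPM (SD, n = 3) in number 2, which is 73.6% of the first value. Both subunits shared the difference. The small subunit made up 31.0% to 31.3% of the summed level of both subunits in number 1 and 29.9% to 30.1% in number 2. The library labelled ALKBH5 rescue 1 was the highest, with 5104 CPM for all genes, against 4661 in shCtrl 1 and 4506 in shALKBH5 1.

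**Figure D1:**
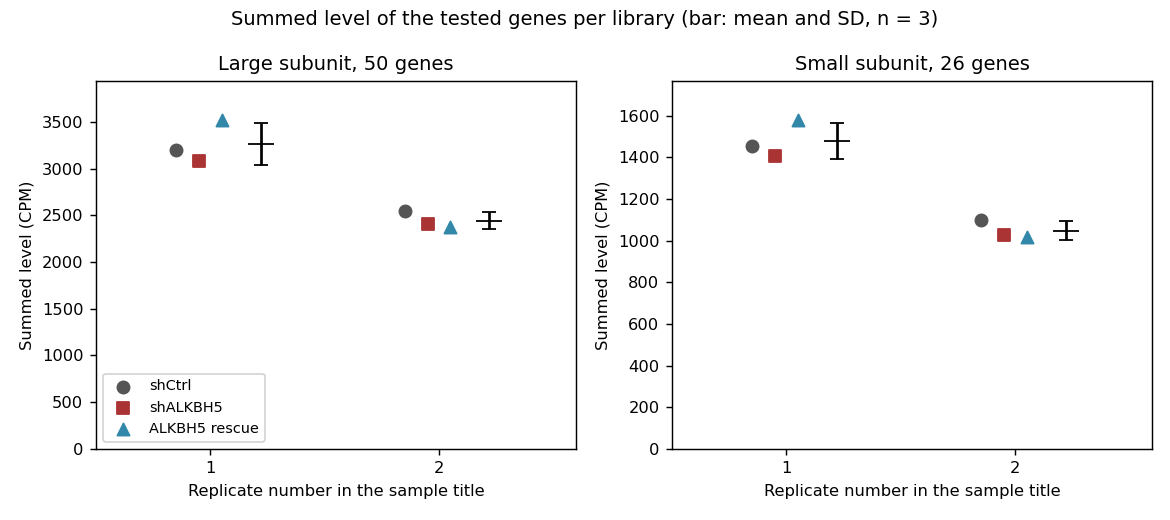
Summed level in CPM of the tested large-subunit (left) and small-subunit (right) genes, by the replicate number in the title; each point is 1 library, its shape and colour give the labelled group, and the bar is the mean and SD of 3 libraries. The libraries numbered 1 lie above those numbered 2 in both panels, and ALKBH5 rescue 1 is the highest.

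Gene by gene, 54 of the 77 tested members (70.1%) were lower in number 2 and 2 (2.6%) were higher (edgeR with a term for the group, adjusted p under 0.05). Among all genes tested, 22.6% were lower and 22.8% higher in the same comparison. The median member differed by -0.46 on the log2 scale, with quartiles of -0.69 and -0.22, while the median over all genes was 0.01. The 3 libraries numbered 2 all lay below the 3 numbered 1 for 56 members, and all above for 2, against 29.1% and 28.6% of all genes. For the other 19 members the numbers overlapped. The median difference was -0.41 in the shCtrl libraries, -0.37 in the shALKBH5 libraries and -0.64 in the ALKBH5 rescue libraries, each from 1 library against 1. No sample with the low ALKBH5 level has the number 2, so the 54 differences belong to a contrast in which number, ALKBH5 level and anything else that separates the numbers coincide.

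**Figure D2:**
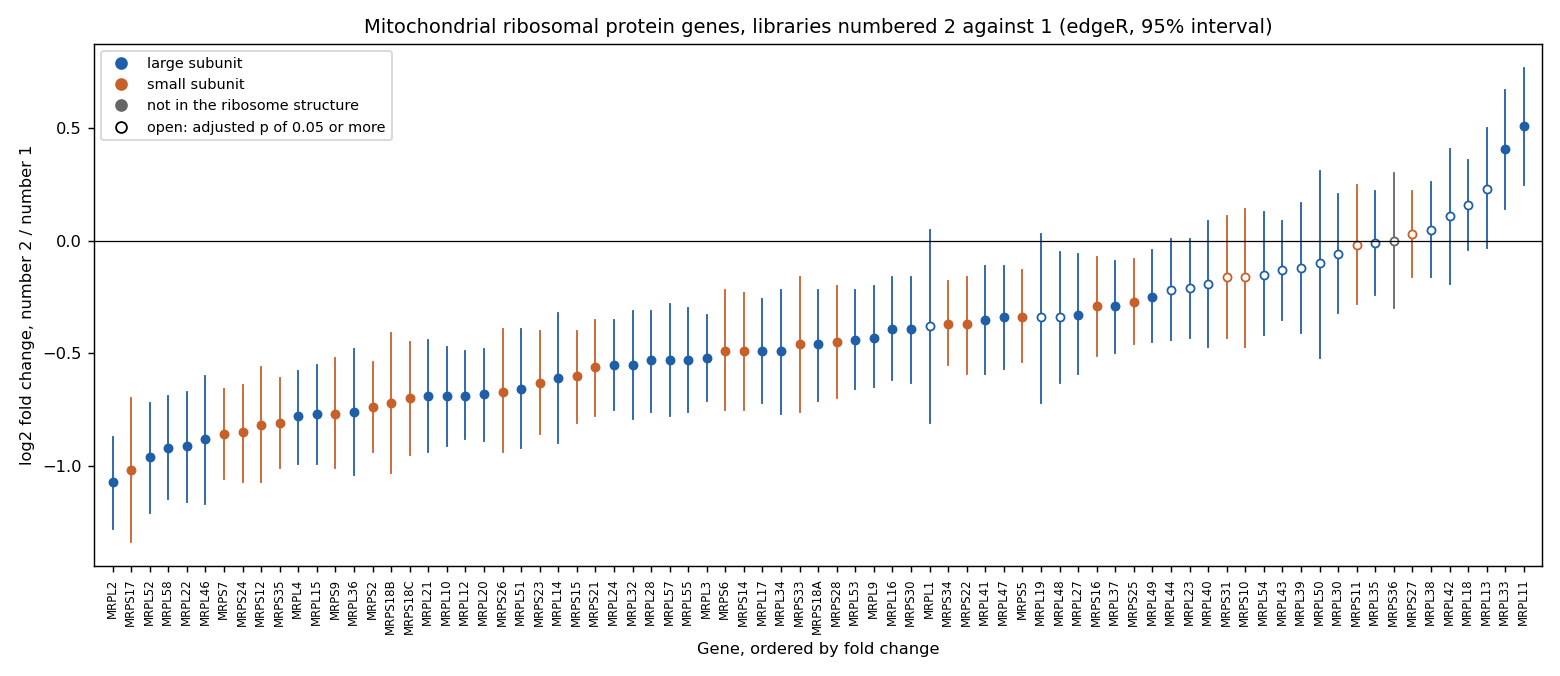
Log2 fold change of each of the 77 tested genes between the libraries numbered 2 and 1, ordered from the lowest, with the 95% interval of the edgeR fit; blue marks the large subunit, orange the small subunit and grey MRPS36, and open circles did not pass. Most genes lie between -1.07 (MRPL2) and 0, and MRPL33 and MRPL11 are the filled circles above 0.

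MRPL2, a relative of bacterial protein L2 beside the peptidyl transferase centre, showed the lowest ratio. Its level was 82.8 CPM in shCtrl 1, 80.4 in shALKBH5 1 and 86.0 in ALKBH5 rescue 1, against 42.8, 37.7 and 38.1 in the same groups of number 2. The libraries of each number lay close together and the numbers far apart, a log2 difference of -1.07 (SE 0.09; edgeR adjusted p = 3.37e-05). MRPS17, a small-subunit protein with a bacterial relative, read 23.5, 20.6 and 31.3 CPM in shCtrl, shALKBH5 and ALKBH5 rescue of number 1. It read 13.2, 11.6 and 11.9 CPM in number 2, a log2 difference of -1.02 (SE 0.14; edgeR adjusted p = 0.00044). Its high library was ALKBH5 rescue 1, and the groups of libraries did not overlap. MRPL52, a mitochondria-specific protein of the large subunit, had 85, 92.4 and 99.6 CPM in number 1 and 50.9, 49.3 and 42.0 in number 2, in the same group order (log2 -0.96, SE 0.11; edgeR adjusted p = 0.00014). MRPL58, also called ICT1, is a peptidyl-tRNA hydrolase built into the large subunit that frees stalled ribosomes. It had 43.5, 38.8 and 44.9 CPM in number 1 and 24.3, 20.2 and 22.7 in number 2 (log2 -0.92, SE 0.10; edgeR adjusted p = 0.000136). MRPL22, a protein of the polypeptide exit, had 29.9, 27.2 and 31.2 CPM in number 1 and 16.4, 14.5 and 16.0 in number 2 (log2 -0.91, SE 0.11; edgeR adjusted p = 0.000185). Within the 3 labelled groups the differences of MRPL58 and MRPL22 were of like size, -0.84 to -0.98 and -0.86 to -0.96.

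The promoters of the members with the largest changes are shown as sequence only. Whether their letters bear on the differences between the numbers was not tested. The table of RefSeq promoters (GRCh38.p14) has an entry for 68 of the 77 tested members. MRPL2 has none. The 250 bases before the start of the next 4 genes are printed 5′ to 3′ on the gene's strand, with capitals on complete matches, on either strand, to the letters searched for NRF1 (CGCATGCGC), the ETS family with GABPA (CCGGAAGT) and YY1 (AAGATGGCG), factors known to act on nuclear genes for mitochondrial proteins.
MRPS17, chr7:55951627-55951876, plus strand: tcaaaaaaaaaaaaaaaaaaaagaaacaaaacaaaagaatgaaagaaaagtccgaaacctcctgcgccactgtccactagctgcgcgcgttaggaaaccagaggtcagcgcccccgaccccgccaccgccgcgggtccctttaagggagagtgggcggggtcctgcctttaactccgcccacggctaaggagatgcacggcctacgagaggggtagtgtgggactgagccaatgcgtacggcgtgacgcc
MRPL52, chr14:22829637-22829886, plus strand: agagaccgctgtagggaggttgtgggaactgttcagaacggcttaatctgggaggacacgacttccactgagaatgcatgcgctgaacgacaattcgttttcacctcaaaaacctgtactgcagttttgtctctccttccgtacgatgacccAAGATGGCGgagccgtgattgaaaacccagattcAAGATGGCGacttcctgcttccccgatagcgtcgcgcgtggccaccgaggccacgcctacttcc
MRPL58, chr17:75012420-75012669, plus strand: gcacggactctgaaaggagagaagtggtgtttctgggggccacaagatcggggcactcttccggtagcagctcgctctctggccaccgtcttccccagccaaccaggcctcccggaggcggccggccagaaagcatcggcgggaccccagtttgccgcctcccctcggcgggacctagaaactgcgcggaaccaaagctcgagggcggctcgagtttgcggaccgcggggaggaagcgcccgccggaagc
MRPL22, chr5:154940823-154941072, plus strand: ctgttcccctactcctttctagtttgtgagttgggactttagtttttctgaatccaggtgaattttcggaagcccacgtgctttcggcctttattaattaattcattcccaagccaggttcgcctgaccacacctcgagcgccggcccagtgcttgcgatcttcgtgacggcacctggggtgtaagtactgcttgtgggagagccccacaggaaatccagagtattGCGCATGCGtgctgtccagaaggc
MRPL52 holds the YY1 letters in 2 places, MRPL22 holds the NRF1 letters as their reverse complement, and MRPS17 and MRPL58 hold none of the 3 strings in these windows. MRPL52 also has the ETS letters as their reverse complement, with the first base at -6. That match runs past the end of the printed bases and is not in capitals.

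Over the whole window, 250 bases before to 50 bases after the start on both strands, the YY1 letters stood in 13 of 68 member promoters (19.1%), in 3.75% of the 10681 promoters of tested protein-coding genes and in 1.85% of all 27305 promoters. The ETS letters stood in 16.2% of member promoters, 8.52% of those of tested genes and 4.44% of all. The NRF1 letters stood in 4.41%, 3.57% and 2.10%. The E-box CACGTG, bound by MYC, stood in 7.35% of member promoters against 9.91% and 7.43%, and the TATA letters TATAAA in 2.94% against 5.69% and 12%. None of these strings contains another. A match describes letters only. In 10 members the YY1 letters lay on the gene's strand just after the start, with the first base at position 7 to 36. These sites are shown with up to 10 bases on each side and the YY1 letters in capitals, because they share a position in genes whose RNA differed unequally.
MRPS30: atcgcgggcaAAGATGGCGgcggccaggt
MRPL22: gggagggcgaAAGATGGCGgcggca
MRPS18B: ggcgtacgtcAAGATGGCGgcgtctgtat
MRPS10: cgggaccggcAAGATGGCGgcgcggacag
MRPS18A: taggtttttgAAGATGGCGgccctcaagg
MRPS24: cgcttggcccAAGATGGCGgcctccgtgt
MRPL50: gatctcatcgAAGATGGCGgcgcgatctg
MRPL42: ggattgaaacAAGATGGCGggttcgtggt
MRPL46: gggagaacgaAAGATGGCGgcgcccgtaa
MRPL38: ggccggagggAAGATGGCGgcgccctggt
Between the numbers these 10 genes ran from -0.91 (MRPL22) to 0.11 (MRPL42) on the log2 scale, and 6 of them were called lower. Of the 13 members with the YY1 letters anywhere in the window 9 were called lower, and of the 55 without them 40 were. The medians were -0.55 and -0.44. With and without the ETS letters, 10 of 11 and 39 of 57 were called lower, with medians of -0.39 and -0.49. The NRF1 letters gave 3 of 3 and 46 of 65 (medians -0.70 and -0.44). The E-box gave 5 of 5 and 44 of 63 (-0.70 and -0.46), and the TATA letters 1 of 2 and 48 of 66 (-0.38 and -0.46). Several of these sets are small, and none of the splits was tested.

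**Figure D3:**
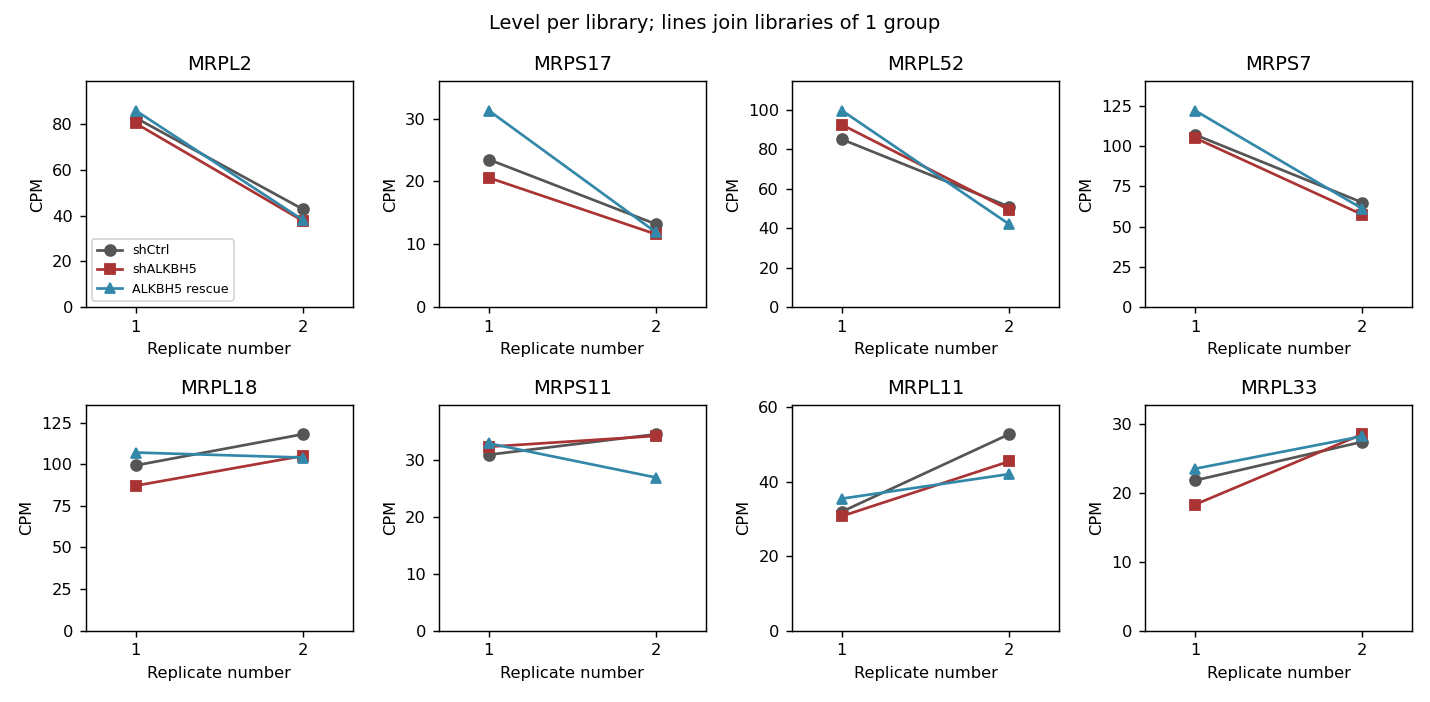
Level in CPM of 8 genes in each library, by replicate number; lines join the libraries of 1 labelled group (circle shCtrl, square shALKBH5, triangle ALKBH5 rescue), and every axis starts at 0. MRPL2, MRPS17, MRPL52 and MRPS7 are lower in number 2 in every group, MRPL11 and MRPL33 are higher, and the numbers overlap for MRPL18 and MRPS11.

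In the large subunit 32 of 50 tested members were lower and 2 higher, with a median of -0.41. All 4 members listed around the peptidyl transferase centre were lower, namely MRPL2, MRPL3 (-0.52, SE 0.09), MRPL4 (-0.78, SE 0.09) and MRPL16 (-0.39, SE 0.10). At the polypeptide exit, where the new chain meets the membrane, 4 of 5 tested members were lower: MRPL22, MRPL24 (-0.55), MRPL17 (-0.49) and MRPL47 (-0.34). MRPL23 (-0.21, edgeR adjusted p = 0.108) did not pass. The remaining exit protein, MRPL45, which anchors the ribosome to the inner membrane, failed the filter: both of its transcripts are listed at 0 in all 6 libraries, and its level was not measured here.

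Of the 6 members listed at the central protuberance, the crown of the large subunit, 2 were lower. Members without a listed position, such as MRPL58 (-0.92) and MRPL55 (-0.53), are not in this count, so it may not cover the whole protuberance. MRPL46 had 21.0, 22.5 and 25.7 CPM in number 1 and 13.7, 11.7 and 12.2 in number 2 (log2 -0.88, SE 0.13; edgeR adjusted p = 0.000555). MRPL27 was lower by a smaller step (-0.33, SE 0.12; edgeR adjusted p = 0.0455). MRPL48 (-0.34), MRPL40 (-0.19), MRPL38 (0.05) and MRPL18 (0.16) did not pass. MRPL18, which binds the structural RNA of the protuberance, read 99.3, 87.1 and 107 CPM in number 1 and 118, 105 and 104 in number 2, so the numbers overlapped.

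The factor-binding stalk, where elongation factors dock, split in direction. MRPL12 had 149, 144 and 166 CPM in number 1 and 103, 89.0 and 93.2 in number 2 (log2 -0.69, SE 0.09; edgeR adjusted p = 0.000271). Its anchor MRPL10 had 55.6, 59.1 and 60.9 CPM in number 1 and 38, 34.7 and 36.1 in number 2 (log2 -0.69, SE 0.10; edgeR adjusted p = 0.000481). MRPL11, at the base of the stalk, had 32.0, 30.8 and 35.5 CPM in number 1 and 52.8, 45.5 and 42.1 in number 2. All libraries numbered 2 lay above those numbered 1 for MRPL11 (log2 0.51, SE 0.12; edgeR adjusted p = 0.00602). MRPL33, a small large-subunit protein with a bacterial relative, was the other member that was higher, with 21.8, 18.3 and 23.5 CPM in number 1 and 27.4, 28.5 and 28.2 in number 2 (log2 0.41, SE 0.12; edgeR adjusted p = 0.0189). Both of these calls depend on single libraries or settings. MRPL33 lost its call without shALKBH5 replicate 1 (log2 0.29, edgeR adjusted p = 0.313), without shALKBH5 replicate 2 (0.30, adjusted p = 0.283) and with DESeq2 (adjusted p = 0.0537), and MRPL11 lost it without shALKBH5 replicate 1 (adjusted p = 0.0615) and on protein-coding transcripts alone (adjusted p = 0.0846).

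In the small subunit 22 of 26 members were lower and none was higher, with a median of -0.53. The 3 members listed at the mRNA entry and decoding site were all lower. MRPS12, a relative of the bacterial protein whose mutations give streptomycin resistance, had 31.5, 27.9 and 34.1 CPM in number 1 and 18.6, 17.3 and 17.0 in number 2 (log2 -0.82, SE 0.11; edgeR adjusted p = 0.000466). MRPS24 had 83.5, 75.7 and 90.9 CPM in number 1 and 47.5, 46.5 and 44.3 in number 2 (log2 -0.85, SE 0.10; edgeR adjusted p = 0.000146), and MRPS5 differed by -0.34 (SE 0.09). In the head, MRPS7 had 107, 105 and 122 CPM in number 1 and 64.9, 57.4 and 61.1 in number 2 (log2 -0.86, SE 0.09; edgeR adjusted p = 8.69e-05). MRPS9 (-0.77) and MRPS14 (-0.49) of the head were lower too, and MRPS10 (-0.16, edgeR adjusted p = 0.349) did not pass. On the platform, where the mRNA leaves, MRPS18C (-0.70), MRPS21 (-0.56) and MRPS6 (-0.49) were lower, and MRPS11 read 30.9, 32.3 and 32.9 CPM in number 1 and 34.5, 34.2 and 26.9 in number 2 (log2 -0.02, SE 0.12). MRPS35 (-0.81, SE 0.09), a mitochondria-specific protein, completes the 10 largest decreases.

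Proteins with a bacterial relative were lower in 35 of 46 cases and higher in 2, with a median of -0.52. The mitochondria-specific proteins were lower in 19 of 30 tested cases and higher in none, with a median of -0.36. The difference between these classes, and that between the subunits, was not tested. MRPS36, which structures place in the oxoglutarate dehydrogenase complex and not in the ribosome, read 8.03, 9.48 and 9.73 CPM in number 1 and 8.09, 10.9 and 8.37 in number 2, so the numbers overlapped.

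Levels per length varied 53.2-fold over the tested members. On the TPM scale, which corrects for transcript length, MRPL52 had the highest mean of 6 libraries, 273 ± 85.6 TPM (SD, n = 6). MRPL37 followed with 266 ± 17.2, MRPL20 with 266 ± 57.5, MRPS34 with 212 ± 22.6 and MRPL18 with 190 ± 22.8 TPM (SD, n = 6 each). The ranges over the 6 libraries overlapped for each pair of neighbours in that order, although the mean of MRPL20 lies above the highest library of MRPS34 (240 TPM). The lowest were MRPL50 with 5.14 ± 1.5, MRPS18B with 9.82 ± 2.36, MRPS36 with 11.7 ± 2.35, MRPL1 with 15.1 ± 3 and MRPL30 with 15.8 ± 1.5 TPM (SD, n = 6 each). The SDs of the 6 libraries hold the difference between the numbers. The median member had 67.5 TPM, with quartiles of 34.9 and 97.0. The 3 S18 paralogues sit at separate places in the mitochondrial ribosome and stood at unlike levels. MRPS18A, in the large subunit, had 87.7 ± 12.3 TPM, MRPS18C, on the small-subunit platform, 47.3 ± 14.9 TPM, and MRPS18B 9.82 ± 2.36 TPM (SD, n = 6 each). All 3 were lower in number 2, with values of -0.46, -0.70 and -0.72 on the log2 scale. The class counts above hold MRPS18A and MRPS18B as mitochondria-specific; with both moved to the proteins with a bacterial relative, 37 of 48 of these and 17 of 28 of the others were lower. MRPS18B lies in the major histocompatibility region, and the annotation used for the gene sums holds no copies on alternative haplotypes. Reads assigned to any such copies would have been left out. MRPS18B may therefore have been counted in part, and its level here may be too low.

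Reads of most members were assigned to coding transcripts. Protein-coding transcripts held 90.7% to 91.3% of the members' counts per library, and 54 of the 77 members had at least 85% of their counts on them in every library. MRPL2 was an exception, with 49.6% to 55.5% of its counts on retained-intron transcripts. MRPS11 had 13.1% to 23.1% on protein-coding transcripts, and MRPL11 had 34.9% to 48.3% on a transcript annotated for nonsense-mediated decay. Some of these shares differed between the numbers, and the genes named for it were chosen after their values were seen. MRPL38, a member whose total did not pass, had 27.3%, 26.3% and 21.6% of its counts on retained-intron transcripts in shCtrl, shALKBH5 and ALKBH5 rescue of number 1, and 14.4%, 15.0% and 12.1% in number 2. MRPL17 had 41.0%, 41.1% and 42.5% on such transcripts in number 1 and 33.8%, 33% and 29.3% in number 2. MRPL22 had 26.4%, 21.2% and 26.9% on decay-annotated transcripts in number 1 and 10.7%, 15.7% and 8.79% in number 2. In these 3 genes the libraries numbered 2 held the lower shares without overlap. Others went the opposite way, such as MRPS22, with 5.42%, 6.92% and 4.23% on decay-annotated transcripts in number 1 and 10.3%, 13.6% and 11.3% in number 2. Over all members the retained-intron share was lower in number 2 without overlap for 4 and higher for 5. The decay-annotated share was lower for 5 and higher for 2. The same counts were not made over all genes, so they are not read as a result about the members. Assignment to transcripts that share most of their sequence is an estimate, and these shares have no test.

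Genes that start head to head with another protein-coding gene within 1000 bases made up 18 of the 77 tested members (23.4%), against 10.3% of the 13647 tested protein-coding genes. Of these, 12 members were lower, and in 4 pairs both genes were lower. Of the 18 partners 5 were lower and 4 higher, with a median of -0.01. Among all genes tested 22.6% were lower and 22.8% higher, so the partners lay near that share. MRPL46 and MRPS11 are partners of each other, with starts 34 bases apart on chromosome 15, and differed by -0.88 and -0.02. Each of them is counted both as a member and as a partner. MRPL36 (-0.76) and its partner NDUFS6 (-0.61), a subunit of respiratory complex I, were both lower, whereas MRPL27 (-0.33) was lower and its partner EME1 (0.90), a subunit of a DNA repair nuclease, was higher. The sources used here do not state how strand was used in the counting, so reads in overlaps with the other strand, which 25 members have, cannot be assigned with certainty.

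The members are short, with a median length of 1257 bases against 2658 for all genes tested. Across the 77 genes the log2 difference between the numbers had a Spearman correlation of 0.19 with length, -0.24 with GC content and -0.08 with level. The same correlations over all genes were 0.11, -0.20 and -0.10. These are across genes, which are not independent replicates. Among the 4796 genes between 776 and 2152 bases, the span from the 10th to the 90th percentile of the members, 25.9% were lower and 17.8% higher, with a median of -0.06.

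Other parts of mitochondrial gene expression showed mixed values in the same comparison. Of 5 ribosome subunits with other names, GADD45GIP1 (-0.81, SE 0.09; edgeR adjusted p = 0.000154) and AURKAIP1 (-0.58, SE 0.09; edgeR adjusted p = 0.00104) were lower, and DAP3 (-0.13), CHCHD1 (0.02) and PTCD3 (0.02) did not pass. Factors that assemble the ribosome or modify its rRNA were lower in 16 of 27 cases and higher in 3, with a median of -0.41. They include MPV17L2 (-1.19), the rRNA methyltransferase MRM3 (-1.04), C1QBP (-0.93), the pseudouridine synthase TRUB2 (-0.93) and, in the other direction, the GTPase MTG1 (0.91). Translation factors were lower in 7 of 16 cases and higher in 2. Among those lower were the elongation factor TSFM (-0.81), TACO1 (-0.63) and OXA1L (-0.51). The 2 that were higher were the release factor MTRF1 (0.97) and the initiation factor MTIF3 (0.65). Genes for mitochondrial DNA and RNA synthesis and upkeep were lower in 10 of 17 cases and higher in 1, among them the helicase TWNK (-0.98), the RNA polymerase POLRMT (-0.73) and the packaging factor TFAM (-0.68). Among the nuclear regulators, PPRC1 (-0.92), MYC (-0.59) and PPARGC1B (-0.54) were lower, YY1 (0.29) and GABPA (0.46) were higher, and NRF1 (-0.04) did not pass.

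The mRNAs that these ribosomes translate gave other values. None of the 13 mitochondrially encoded proteins' genes passed (edgeR; 1 at an unadjusted p under 0.05), with a median of 0.03 and a range from -0.29 (MT-ND1) to 0.22 (MT-ATP6). Their nuclear-encoded partners in the respiratory chain were lower in 42 of 76 tested cases and higher in 3, with a median of -0.29. Cytosolic ribosomal proteins were lower in 59 of 83 tested cases and higher in 2, with a median of -0.40. The counts of the cytosolic list are close to those of the mitochondrial ribosomal proteins, and no difference between lists was tested.

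**Figure D4:**
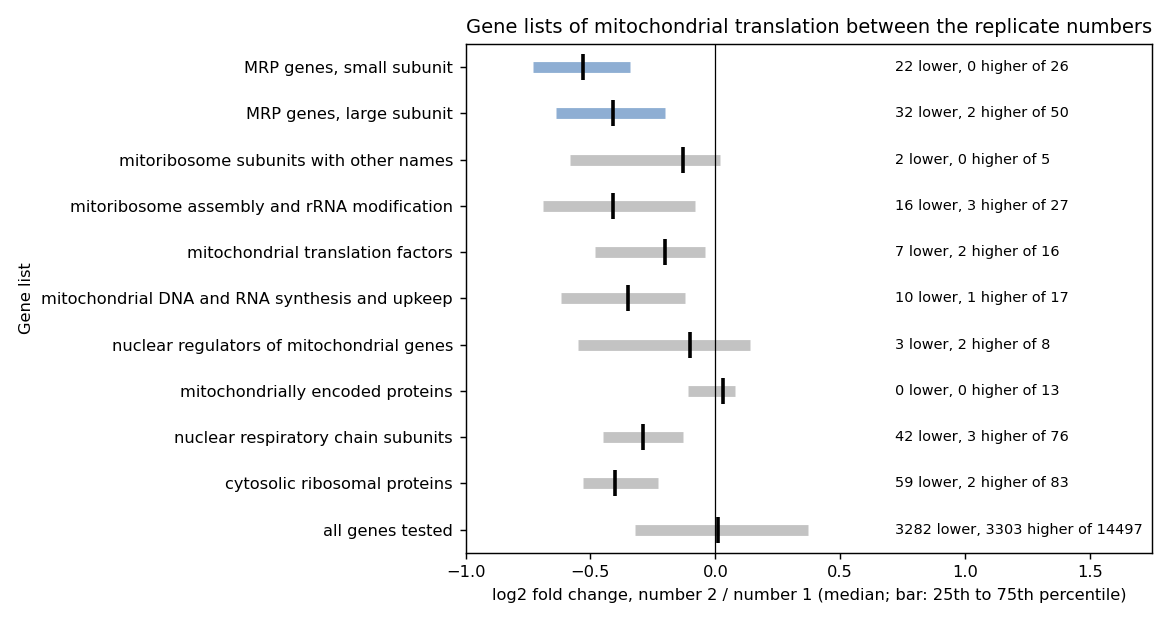
Log2 fold change between the libraries numbered 2 and 1 in lists of genes, as the median (tick) and the span from the 25th to the 75th percentile (bar), with the number of genes past an adjusted p of 0.05 in each direction; blue bars are the mitochondrial ribosomal protein (MRP) genes. The medians of both subunits, -0.53 and -0.41, lie below 0, and that of the mitochondrially encoded proteins is 0.03.

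Between the labelled groups no member passed the test. The study's labels pose the question of what loss and return of ALKBH5 change, but ALKBH5 itself did not follow them. In the fit without a block, 0 of 77 members passed for shALKBH5 against shCtrl, for ALKBH5 rescue against shALKBH5 and for ALKBH5 rescue against shCtrl (edgeR; none at an unadjusted p under 0.05), and 0% of all genes passed in each. The limits of this fit are wide, because the difference between the numbers enters its error: the median SE of the members was 0.31. The median of the members was -0.08, 0.11 and 0.05 in the 3 comparisons, beside -0.03, 0.01 and -0.01 for all genes. With the number as a block, which lowered the median SE to 0.13, 0 of 77 members passed in each comparison again, against 0.00690%, 0% and 0.00690% of all genes (edgeR; 1, 0 and 0 members at an unadjusted p under 0.05). DESeq2 and limma-voom, with and without the block, called none. The 95% intervals of the blocked fit lay within -1 and 1 on the log2 scale for 76, 77 and 76 members. Changes beyond 2-fold therefore lie outside the interval for nearly all of them. Many intervals are narrower, such as -0.36 to 0.14 for MRPL2 in shALKBH5 against shCtrl. Changes that lie inside a member's own interval cannot be told from the spread.

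MRPL50, a mitochondria-specific large-subunit protein with the lowest level per length, was the member at an unadjusted p under 0.05. It read 12 CPM in shCtrl 1 and 8.03 in shCtrl 2. It read 17.4 CPM in shALKBH5 1 and 14.3 in shALKBH5 2, and 11.6 CPM in ALKBH5 rescue 1 and 16.2 in ALKBH5 rescue 2. The shALKBH5 libraries both lay above the shCtrl libraries, and the rescue libraries spread across that gap. With the block MRPL50 differed by 0.67 (SE 0.23, 95% interval 0.16 to 1.19) between shALKBH5 and shCtrl, with an edgeR adjusted p of 0.978 (unadjusted p = 0.0157). The next smallest p-values in that comparison belonged to MRPS36 (0.34, SE 0.17) and MRPL1 (0.45, SE 0.24) upward, and MRPL58 (-0.21, SE 0.13), MRPL18 (-0.18, SE 0.11) and MRPL48 (-0.24, SE 0.16) downward, none of which passed.

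For ALKBH5 rescue against shALKBH5 the smallest p-values were those of MRPL47 (0.26, SE 0.12), MRPS17 (0.35, SE 0.17) and MRPL39 (0.31, SE 0.16) upward, and MRPS11 (-0.15, SE 0.14), MRPL19 (-0.20, SE 0.20) and MRPS36 (-0.17, SE 0.17) downward, with edgeR adjusted p = 1 for each. For ALKBH5 rescue against shCtrl they were those of MRPL50 (0.49, SE 0.23), MRPL39 (0.30, SE 0.16) and MRPL30 (0.25, SE 0.15) upward, and MRPS25 (-0.16, SE 0.10), MRPS2 (-0.14, SE 0.11) and MRPS5 (-0.11, SE 0.11) downward, again with edgeR adjusted p = 1. These comparisons share libraries, so their values are given side by side only.

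Within the numbers the group differences had unlike medians. For shALKBH5 against shCtrl the median of the members was -0.04 within number 1 and -0.11 within number 2, beside 0.00 and -0.05 for all genes. Of the 77 members 24 and 18 were higher, against 49.8% and 41.8% of all genes, and 45 members were lower in both numbers. For ALKBH5 rescue against shALKBH5 the median of the members was 0.21 within number 1, with 67 of 77 members higher, and -0.02 within number 2, with 32 higher. All genes had a median of 0.00 in both numbers, with 50.7% and 50.9% higher. For ALKBH5 rescue against shCtrl the median of the members was 0.13 within number 1, with 66 higher, and -0.12 within number 2, with 18 higher. All genes had medians of 0.00 and -0.06 there, with 49.9% and 42.2% higher. Signs differed between the numbers for 64 of the 77 members in this comparison. Signs over both numbers were counted for the members only, not for all genes. The high values of number 1 belong to a single library, ALKBH5 rescue 1, which is also the most deeply sequenced. Its part in them was not tested.

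**Figure D5:**
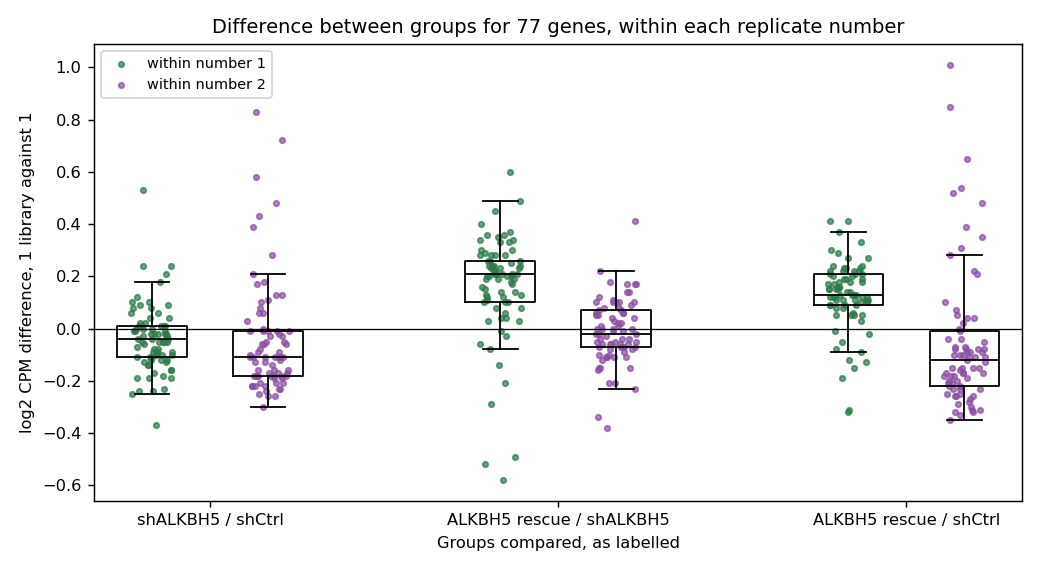
Difference in log2 CPM between 2 labelled groups for each of the 77 genes, from 1 library against 1, within number 1 (green) and within number 2 (purple); boxes give the quartiles and median, and whiskers reach the last point within 1.5 times the box. The medians of ALKBH5 rescue against shALKBH5 are 0.21 and -0.02, and those of ALKBH5 rescue against shCtrl are 0.13 and -0.12.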

How the data were processed

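Polyadenylated RNA was sequenced in 6 THP1 libraries, grouped by title. Per the file headers, each table the authors deposited lists 179973 transcripts with estimated counts, TPM and lengths. The submitters' processing notes name CASAVA, kallisto 0.43.1 and the build hg38. The sources used here give neither options, transcript set nor strand use, and no molecular identifiers are mentioned in the labels' protocols. Reads shared by similar transcripts are divided by estimate, so pseudogenes and near copies make counts uncertain.

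The deposited estimated counts were summed per gene with GENCODE 29, which matched 163714 transcripts (91.0%), and rounded. Unmatched transcripts held 3.13% to 3.32% of the counts and were left out. The deposited TPM values were summed per gene to compare levels between genes. edgeR 4.0.16 in R 4.3.3 (TMM, filterByExpr, glmQLFit, glmQLFTest) was fitted to all 6 libraries with Benjamini-Hochberg adjustment over 14497 genes at 0.05. The 3 group comparisons had 1 coefficient per group, and number 2 against number 1 had a term for the group. An SE is the absolute log2 fold change over the square root of F. Log2 CPM values used a prior count of 2. The code was tested on simulated data.

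Same-numbered libraries deviated together from their group means (correlations of 0.597, 0.685 and 0.727), although the labels name no common day or batch. The main fit of the group comparisons left this pairing out, and the fit with the number as a block took it in as an alternative. Alternatives were RLE scaling, DESeq2 1.42.0, limma-voom (limma 3.58.1), other filters, protein-coding transcripts only, the block, and leaving out each library. The block with RLE, DESeq2 or limma-voom was added after seeing the data.

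Genes named are those with the largest called changes between numbers (up to 12 each way), the 3 smallest blocked p-values each way per group comparison, the 5 highest and 5 lowest levels, members with a listed position in the ribosome, the S18 paralogues, and up to 4 per other list by smallest p, with regulators and extremes beyond that, and the transcript and neighbour examples, chosen after their values were seen. Members and lists were chosen with earlier results of these data known. Promoters are RefSeq's (GRCh38.p14). The mitochondrial ribosomal proteins' own sequences were not used here.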

Additional observations from a re-analysis of the deposited data

Results flagged for a closer look

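The difference between ALKBH5 rescue and shALKBH5 was unlike in the 2 replicate numbers. The median over the 77 genes was 0.21 on the log2 scale within number 1 and -0.02, near 0, within number 2. The median over all genes was 0.00 in both. For ALKBH5 rescue against shCtrl the medians had opposite signs, 0.13 within number 1 and -0.12 within number 2, beside 0.00 and -0.06 for all genes. Each value rests on 1 library against 1, both comparisons use the same 2 rescue libraries, and the difference between the numbers was not tested.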

How the results depend on the processing

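The count of members called between the numbers, 56 of 77, was 47 to 56 under RLE scaling, DESeq2, limma-voom, 2 other filters and protein-coding transcripts only, and 40 to 57 when a library was left out. Of the 56 calls, 40 to 56 kept their direction and their call. The 2 calls upward were 1 with DESeq2 and 0 to 4 without 1 library. The median of -0.46 was -0.64 within the ALKBH5 rescue libraries. With replicate number as a block, 0 members were called in every group comparison, with medians of -0.09, 0.09 and 0.03, and the block changed no other call. Leaving out 1 library puts unequal numbers into the groups by construction, and the fit then assumes that the lone library varies like the others. The medians then ran from -0.26 to 0.16 (shALKBH5 against shCtrl), -0.23 to 0.38 (ALKBH5 rescue against shALKBH5) and -0.31 to 0.28 (ALKBH5 rescue against shCtrl). Signs also turned for MRPL58 in the first of these (-0.74 to 0.28), for MRPS17 in the next (-0.44 to 0.95), and for MRPS2 (-0.59 to 0.24) and MRPS5 (-0.35 to 0.12) in the last. MRPS11 in ALKBH5 rescue against shALKBH5 was 0.09 on protein-coding transcripts only, and the cause was not tested. Depth differs between members, with 108 to 7533 counts per tested gene and library. MRPS18B, which may have been counted in part, had 108 to 289 counts. Its counting error was 5.88% to 9.62%, beside a spread between libraries of 10.6% over all genes in the blocked fit.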

Other observations

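The annotation holds 75 pseudogenes named after members. The most counted, MRPS31P5, had 99.1, 107.9 and 133.0 estimated counts in shCtrl, shALKBH5 and ALKBH5 rescue of number 1 and 126.9, 117.3 and 103.2 in number 2. MRPS31P4 had 69, 83 and 100 in number 1 and 80, 85 and 71 in number 2, and MRPS31 itself, a small-subunit protein, did not pass between the numbers (log2 -0.16, SE 0.12). MRPL45P2 held 20.3 to 36.0 estimated counts per library, while MRPL45 is listed at 0 in each.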
